A study of Mus musculus with 12 samples.

Results

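The regions described here are the long gene intervals of mouse chromosome 4 and the number of control reads that fell on them from one end of the chromosome to the other. An interval is a RefSeq transcript from its start to its end, introns included. Intervals were taken where they were on chromosome 4, spanned 20 kb or more and had 2 or more exon blocks, and Cdkn2a, Cdkn2b and Aqp7 were left out. This rule gave 908 of the 33062 intervals that the libraries share. They belong to 622 named genes, and 5 of them had no symbol. The members were chosen by the IgG read counts themselves: chromosome 4 was picked because its read density was low in these same 6 libraries, so its low level is a description here and was given no test.

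The cells were mpkCCD clone 11, a transformed line of mouse renal collecting duct principal cells, at passages 6 to 10. They were grown to confluence on permeable supports and kept in serum-free medium for the last 24 h, with 0.1 nM dDAVP, an agonist selective for the vasopressin V2 receptor, or with its vehicle in the medium throughout. Chromatin was precipitated with a control IgG antibody in 3 experiments with dDAVP and 3 with vehicle, and these 6 libraries are used here. The study also holds 6 RNA polymerase II libraries, which were not analysed here. The line is 1 clone, and the labels name no separate cultures or animals, so a p-value below sets treatment against the spread among these samples alone, and that spread may be technical. The libraries hold genomic DNA and no expression, so cell type markers were not checked.

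An IgG control precipitation brings down chromatin without a chosen target. The number of its reads on a region follows how much of that DNA the cells hold, its base composition, and whether short reads can be placed there. Mouse chromosome 4 carries single-copy genes along most of its length. It also carries families of related genes that arose by tandem duplication: Skint genes of the skin immune system, cytochrome P450 genes, major urinary protein genes and a stretch of zinc finger genes near its far end.

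The following 4 windows are from zinc finger genes near the far end, which departed most upward from the rest of the chromosome. They are not the 4 highest: Zfp985, with the highest mean log2 relative density (1.28), was compared but is not shown, and neither is Zfp984. The bases shared by the 4 therefore do not stand for the highest genes as a set. The upstream sequences of the 4 genes shown are close copies. Each is the 200 bases just before the RefSeq start of the gene (GRCm38.p6, the assembly of mm10), printed 5′ to 3′ on the strand of the gene. Capitals mark the bases that were identical in all 4 genes in a MAFFT alignment, which were 175 of the 200 bases in each. Zfp600 lies on the + strand at chr4:146156627-146156826, Zfp980 on the + strand at chr4:145670497-145670696, Zfp979 on the - strand at chr4:147642509-147642708, and Rex2 on the + strand at chr4:147021650-147021849.
Zfp600: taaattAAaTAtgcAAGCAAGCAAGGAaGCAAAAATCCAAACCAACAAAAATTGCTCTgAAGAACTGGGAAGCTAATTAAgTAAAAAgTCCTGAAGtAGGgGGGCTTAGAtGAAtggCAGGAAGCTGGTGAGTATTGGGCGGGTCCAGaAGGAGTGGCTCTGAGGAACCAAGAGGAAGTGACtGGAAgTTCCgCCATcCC
Zfp980: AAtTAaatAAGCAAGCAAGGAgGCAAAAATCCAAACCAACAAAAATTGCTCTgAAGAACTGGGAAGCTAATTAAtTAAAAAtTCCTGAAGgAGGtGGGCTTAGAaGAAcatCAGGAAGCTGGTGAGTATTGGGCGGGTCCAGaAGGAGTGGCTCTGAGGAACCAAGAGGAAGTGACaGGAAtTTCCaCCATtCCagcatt
Zfp979: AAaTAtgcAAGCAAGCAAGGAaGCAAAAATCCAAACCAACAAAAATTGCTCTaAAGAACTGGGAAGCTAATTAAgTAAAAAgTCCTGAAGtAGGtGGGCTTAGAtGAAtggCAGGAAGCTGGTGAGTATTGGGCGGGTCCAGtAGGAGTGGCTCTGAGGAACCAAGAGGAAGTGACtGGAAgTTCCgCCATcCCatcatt
Rex2: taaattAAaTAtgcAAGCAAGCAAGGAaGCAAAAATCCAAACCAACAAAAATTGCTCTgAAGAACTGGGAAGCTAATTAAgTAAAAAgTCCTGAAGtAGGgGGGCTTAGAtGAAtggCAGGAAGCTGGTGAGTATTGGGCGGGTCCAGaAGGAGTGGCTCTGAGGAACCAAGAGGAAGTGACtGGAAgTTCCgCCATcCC
The Zfp600 and Rex2 windows were 100% identical, and the other pairs among these 4 shared 87.9 to 92.7% of their aligned bases. The window of Zfp985 shared 84.9 to 88.6% with these 4, and that of Zfp984 66.1 to 69.4%. Each window lies outside the interval of its gene in which reads were counted, and the likeness of the intervals themselves was not measured.

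A further 2 windows are shown because GC content moved with the read density in some libraries. They are 200-base intron stretches of the genes with the longest interval in the 5-Mb bin of lowest GC content (Fut9, chr4:25626133-25626332) and of highest GC content (Camta1, chr4:151070123-151070322), among bins with 3 or more members, on the + strand of mm10, with G and C in capitals.
Fut9: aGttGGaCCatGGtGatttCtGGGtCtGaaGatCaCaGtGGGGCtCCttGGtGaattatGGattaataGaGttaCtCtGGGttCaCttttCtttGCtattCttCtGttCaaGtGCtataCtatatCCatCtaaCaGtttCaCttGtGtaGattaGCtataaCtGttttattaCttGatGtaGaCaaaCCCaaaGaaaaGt
Camta1: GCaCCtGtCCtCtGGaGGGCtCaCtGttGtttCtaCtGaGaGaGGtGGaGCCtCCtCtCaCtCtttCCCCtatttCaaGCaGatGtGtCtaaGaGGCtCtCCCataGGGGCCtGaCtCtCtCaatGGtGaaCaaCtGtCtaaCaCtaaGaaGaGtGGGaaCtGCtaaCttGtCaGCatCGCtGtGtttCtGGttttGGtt
The Fut9 window held 37% G and C, and the Camta1 window 49.5%.

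The deposited counts summed to 10588927 to 19748658 reads over all intervals of a library, and 363489 to 676981 of them fell on the chromosome 4 members. The median member held 206 to 357 reads, the least covered 12 to 57, and no member was at 0 in any library. Experiments 1 and 2 of each group agreed closely, with a chi-square over degrees of freedom of 1.02 for dDAVP and 1.01 for vehicle. The chi-square test gave p = 0.038 for dDAVP and p = 0.17 for vehicle, and the other pairs had ratios of 1.68 to 148. With a limit of 1.1 for this ratio, experiments 1 and 2 were averaged and counted as 1 sample, which left 2 samples per group. The dDAVP library of experiment 3 stood apart from the other 5, with a density that rose steeply with GC content. Its reads also lay deeper on the bases they covered, at a median of 2.05 over the 622 genes, against 1.199 to 1.506 in the other 5. Results are given with and without this library. The members spanned 20 to 2271 kb (median 48.2 kb), formed 605 separate stretches after overlaps were merged, and covered 53.6 Mb, or 34.3%, of the chromosome. Of the 908 members, 476 overlapped another member and 256 had the same coordinates as another, so they are not independent of each other.

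Density is given relative to autosomal intervals of the same size: reads per kb in a library, divided by the median over all autosomal intervals of 20 kb or more in the same length decile of that library, so that 1 is the autosomal level. Values are listed for experiments 1, 2 and 3 of a group in that order. The median chromosome 4 member had a relative density of 0.648, 0.650 and 0.707 with dDAVP, and of 0.644, 0.644 and 0.643 with vehicle. All 6 values lay well under 1, 5 of them within 0.007 of each other, and dDAVP experiment 3 was the highest. This was 0.678 ± 0.041 with dDAVP and 0.6438 ± 0.0004 with vehicle (SD, n = 2 each). Among the 19 autosomes chromosome 4 ranked lowest in 5 libraries and second lowest in dDAVP experiment 3, where chromosome 18 was lower at 0.631. The nearest chromosomes were 7, at 0.646 to 0.756 over the 6 libraries, and 18, at 0.631 to 0.704. These ranges overlap that of chromosome 4, and since the chromosome was picked for this value, the differences were not tested.

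The low density was shared by most members and not carried by a few. In the 5 libraries without dDAVP experiment 3, 95.3 to 97.7% of the members lay under 1, and their quartiles were 0.523 and 0.756 at the widest, in vehicle experiment 3. In dDAVP experiment 3, 64.8% of the members lay under 1 and the quartiles were 0.430 and 1.238, so its members were spread far more widely around a similar median. A relative density under 0.8 in each of the 6 libraries was seen for 344 members (37.9%), against 7.33% of the 13978 autosomal intervals of this kind. Without dDAVP experiment 3 the count was 682 members, against 14.8%, and with GC content matched, as described below, it was 545 members in the 6 libraries, against 11.6%. Because the chromosome was chosen for its low density, nothing is read from these shares beyond the description.

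**Figure D1:**
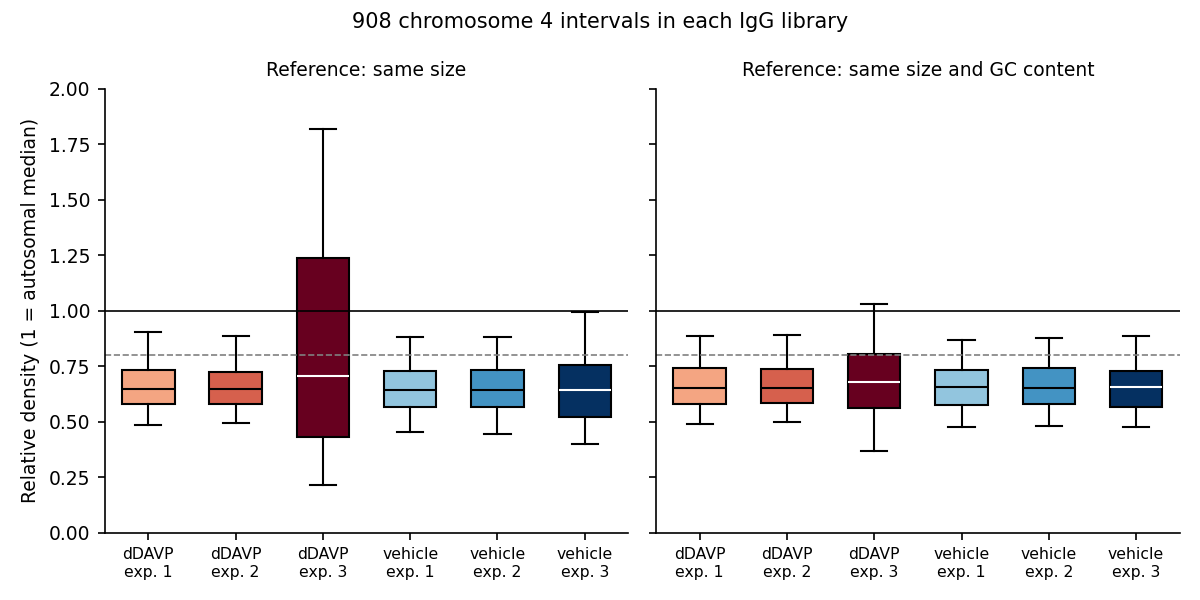
Relative density of the 908 chromosome 4 intervals (y axis, 1 = autosomal median) in each IgG library (x axis), against autosomal intervals of the same size (left) or of the same size and GC content (right). Boxes span the quartiles with the median as a line, whiskers the 5th to 95th percentiles. The medians lie between 0.643 and 0.707 on the left and between 0.654 and 0.679 on the right, and the wide box of dDAVP experiment 3 on the left narrows on the right.

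The position along the chromosome was followed in 5-Mb bins, each with the median of its members. Of 32 bins, 31 held at least 3 members and were counted, and the bin at 75 to 80 Mb held the single interval of Ptprd. In the 5 libraries without dDAVP experiment 3, 31 of 31 bins lay under 1 in each library, against 34.0% of 488 autosomal bins, so the low density ran from the first counted bin to the last. The bins spanned 0.568 to 0.773 in dDAVP experiment 1, 0.572 to 0.798 in dDAVP experiment 2, 0.533 to 0.753 in vehicle experiment 1, 0.552 to 0.783 in vehicle experiment 2 and 0.452 to 0.891 in vehicle experiment 3. No bin reached the autosomal level in these 5. In dDAVP experiment 3 the bins ran from 0.242 to 1.604, and 5 of them lay above 1, at 125 to 130, 135 to 140, 140 to 145, 145 to 150 and 150 to 155 Mb.

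A bin value under 0.8 in each of the 6 libraries was found for 14 of 31 bins, against 9.84% of the autosomal bins, and without dDAVP experiment 3 for 25 of 31, against 15.8%. By the same rule 13 of 29 bins of chromosome 7 and 11 of 18 of chromosome 18 were low in 6 libraries, and 24 of 29 and 15 of 18 without dDAVP experiment 3. The bin with the lowest median over the 5 libraries was at 140 to 145 Mb, where the values were 0.568, 0.613 and 1.35 with dDAVP and 0.533, 0.552 and 0.452 with vehicle. One library was above the autosomal level there and 5 were far under it, and the lowest dDAVP library lay just above the highest vehicle library. With GC content matched, as described below, the same bin had 0.595, 0.650 and 0.690 with dDAVP and 0.584, 0.613 and 0.582 with vehicle, and the groups overlapped. The first bin, at 0 to 5 Mb, had 0.739, 0.6995 and 0.261 with dDAVP and 0.709, 0.783 and 0.812 with vehicle. There dDAVP experiment 3 was the lowest library, and the other 5 lay close together.

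**Figure D2:**
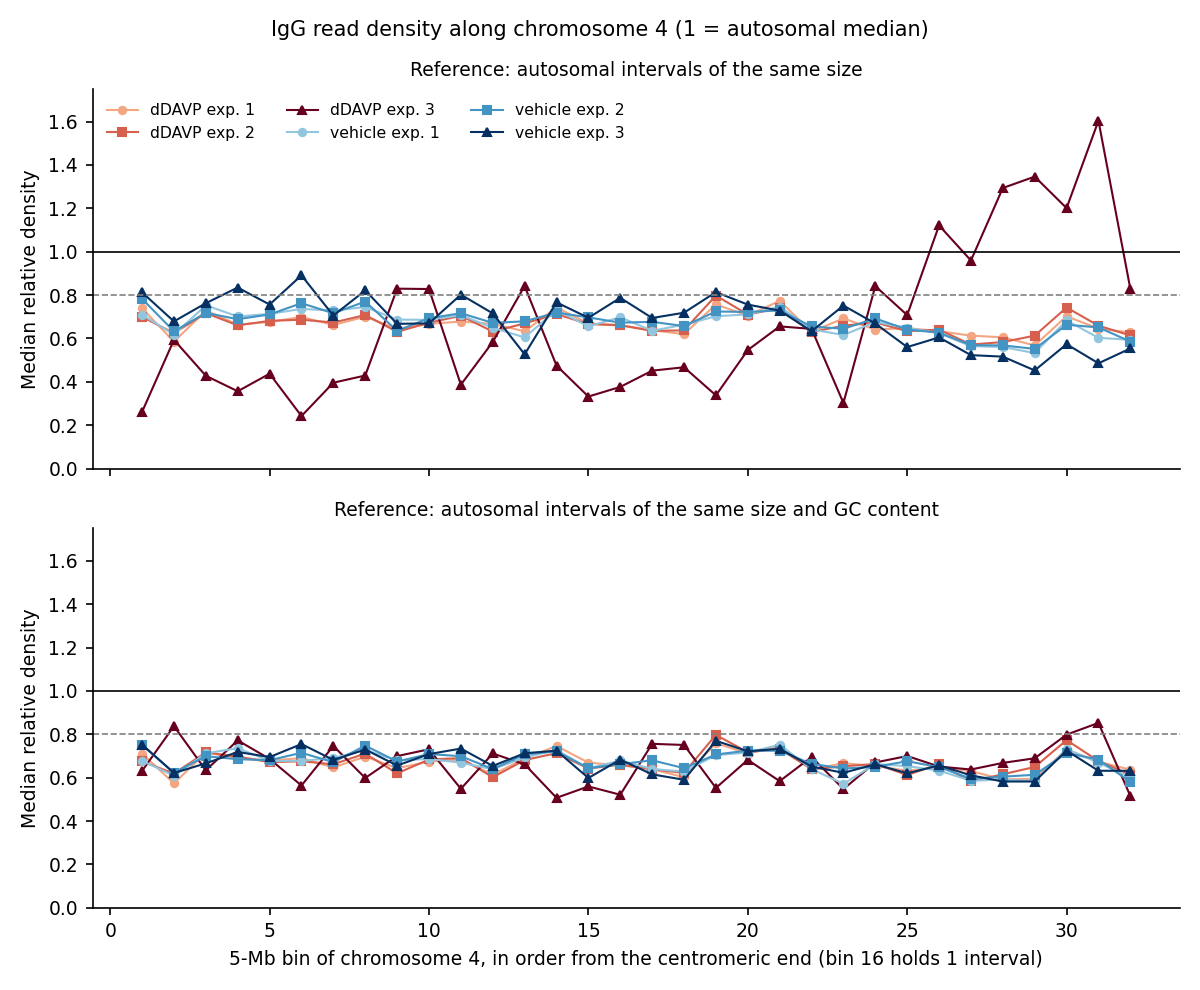
Median relative density of chromosome 4 intervals (y axis, 1 = autosomal median, dashed line 0.8) in 5-Mb bins in order along the chromosome (x axis), 1 line per IgG library, against autosomal intervals of the same size (top) or the same size and GC content (bottom). In the top panel 5 libraries run between 0.452 and 0.891 and dDAVP experiment 3 runs from 0.242 to 1.604. In the bottom panel all 6 lie between 0.507 and 0.853.

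The profile of dDAVP experiment 3 followed the GC content of the bins. Across the 31 bins, Spearman's rho between bin value and median GC content was 0.94 in that library, -0.60 and -0.50 in the other dDAVP libraries, and -0.63, -0.71 and -0.90 with vehicle. These correlations are across bins of 1 library, which share its depth and its reference, and are given without a test. The members were therefore also set against autosomal intervals of the same size and of the same of 5 GC classes. Against that reference the median member had 0.654, 0.655 and 0.679 with dDAVP and 0.655, 0.654 and 0.656 with vehicle, or 0.666 ± 0.018 with dDAVP and 0.656 ± 0.001 with vehicle (SD, n = 2 each). The 6 libraries then spanned 0.654 to 0.679.

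With GC content matched, 29 of 31 bins lay under 0.8 in each of the 6 libraries, against 16.6% of autosomal bins, and 31 of 31 without dDAVP experiment 3, against 18.2%. The 2 bins above 0.8 were so in dDAVP experiment 3 alone, at 5 to 10 Mb (0.838) and at 150 to 155 Mb (0.853). The bins of the other 5 libraries spanned 0.572 to 0.797, and those of dDAVP experiment 3 0.507 to 0.853. Some link to GC content remained, with rho from -0.46 to -0.34 in 5 libraries and 0.33 in dDAVP experiment 3. With the same matching, 25 of 29 bins of chromosome 7 and 14 of 18 of chromosome 18 were low in 6 libraries.

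By GC class of the interval, the medians of the members moved in opposite directions in the experiment 3 libraries. From the class of lowest to that of highest GC content, dDAVP experiment 3 went from 0.310 to 1.48, vehicle experiment 3 from 0.774 to 0.496, and dDAVP experiment 1 from 0.662 to 0.616. Against the GC-matched reference the same medians were 0.697 and 0.712, 0.675 and 0.651, and 0.670 and 0.657. The length of the interval made little difference: in the 4 length classes the medians of the 5 libraries without dDAVP experiment 3 lay between 0.632 and 0.670.

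**Figure D3:**
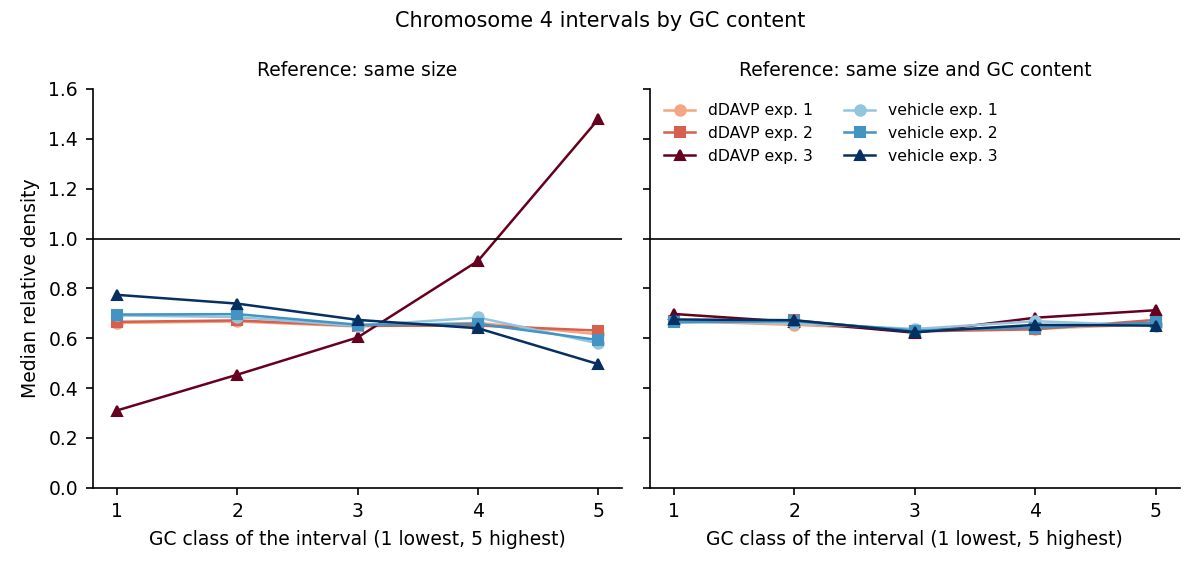
Median relative density of the chromosome 4 intervals (y axis) in 5 classes of GC content (x axis), 1 line per IgG library, against autosomal intervals of the same size (left) or the same size and GC content (right). On the left dDAVP experiment 3 rises from 0.310 to 1.48 and vehicle experiment 3 falls from 0.774 to 0.496. On the right each of the 30 points lies between 0.622 and 0.712.

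No long segment of the chromosome stood at the autosomal level once GC content was matched. From 0 to 50 Mb the GC-matched median of 209 members was 0.670 to 0.705 over the 6 libraries, from 50 to 100 Mb that of 153 members was 0.647 to 0.682, and from 100 to 157 Mb that of 546 members was 0.635 to 0.673. The ranges of the 3 segments overlap, with the last segment lowest in 4 of the libraries. Without GC matching the last segment was the highest in dDAVP experiment 3, at 0.978 against 0.520 and 0.483, and the lowest in vehicle experiment 3, at 0.569 against 0.715 and 0.732.

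The longest genes hold the most reads, and several are given here with their values. Ptprd, a receptor tyrosine phosphatase of synapses and the longest member at 2271 kb (chr4:75941237-78211895), had 0.662, 0.660 and 0.376 with dDAVP and 0.697, 0.673 and 0.787 with vehicle. Agbl4, an enzyme that trims glutamate chains from tubulin (1265 kb, chr4:110397698-111663024), had 0.710, 0.707 and 0.589 with dDAVP and 0.7004, 0.705 and 0.778 with vehicle. Lingo2, a leucine-rich repeat membrane protein of neurons (1245 kb, chr4:35706648-36951744), had 0.691, 0.684 and 0.404 with dDAVP and 0.724, 0.717 and 0.802 with vehicle. In these 3 AT-rich genes (37.0, 39.6 and 37.0% GC) dDAVP experiment 3 was the lowest library and vehicle experiment 3 the highest, with the other 4 close together between them.

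Camta1, a calmodulin-binding transcription activator with 49.2% GC (chr4:151059523-151861768), showed the opposite order, with 0.636, 0.656 and 2.33 with dDAVP and 0.593, 0.622 and 0.485 with vehicle. Gabbr2, a subunit of the GABA-B receptor with 49.0% GC (chr4:46663898-46991714), had 0.690, 0.722 and 2.22 with dDAVP and 0.657, 0.640 and 0.517 with vehicle. Both GC-rich genes stood above the autosomal level in dDAVP experiment 3 and under it in the other 5 libraries. Nfia, a nuclear factor I transcription factor with 41.7% GC (chr4:97581943-98118876), lay between, at 0.719, 0.716 and 0.681 with dDAVP and 0.712, 0.719 and 0.739 with vehicle, and its 6 libraries overlapped closely. Dab1, the adaptor of reelin signalling (43.8% GC, chr4:104367538-104744844), ranged from 0.708 to 0.803 over the 6 libraries.

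Long genes also differed among themselves beyond the agreement of the libraries. Eif4g3, a scaffold of translation initiation (chr4:137993456-138207079), had 0.487, 0.483 and 1.203 with dDAVP and 0.466, 0.456 and 0.454 with vehicle. Macf1, a linker of microtubules and actin (chr4:123349633-123684360), had 0.496, 0.514 and 0.707 with dDAVP and 0.511, 0.517 and 0.479 with vehicle. Nfib, a nuclear factor I transcription factor related to Nfia, had 0.452, 0.466 and 0.366 with dDAVP and 0.445, 0.443 and 0.449 with vehicle. These 3 genes lay between 0.443 and 0.517 in the 5 libraries without dDAVP experiment 3, where Ptprd, Agbl4 and Nfia lay between 0.660 and 0.787. Rere, an atrophin-family co-repressor, was also in the lower range, at 0.454 to 0.483 in those 5.

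Counted by gene with the longest interval of each, 451 of 622 genes lay under 0.8 in each of the 5 libraries without dDAVP experiment 3, against 14.7% of 9428 autosomal genes, and 222 in each of the 6, against 7.18%. Under 1 in each of the 5 libraries were 581 genes, against 35.7%. Above 1 in each of the 5 were 15 genes, against 38.2%, and the remaining 26 lay on both sides of 1. Of the 15, 13 lay together in the zinc finger stretch described below, and the other 2 were Cdk5rap2 and Mup15.

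By role, 5 lists of chromosome 4 genes were followed, and 86 of their 95 genes had a member interval. Under 0.8 in each of the 5 libraries without dDAVP experiment 3 were 13 of 20 genes of neural adhesion and synapses, 15 of 19 transcription factors and chromatin regulators, 14 of 18 receptors, kinases and signalling genes, 11 of 13 genes of the extracellular matrix and 14 of 18 genes of kidney, ion and solute transport. These shares ran from 65.0 to 84.6%, beside 72.5% of the 622 genes, and no list gene was above 1 in each of the 5. The list medians in those 5 libraries lay between 0.512 and 0.709.

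Within each list the lowest and the highest gene were far apart. Ephb2, a receptor tyrosine kinase for ephrin-B ligands, had a median of 0.459 over the 5 libraries, and Grin3a, an NMDA receptor subunit, 0.820. Among the regulators Ahdc1, an AT-hook DNA-binding protein, had 0.444 and Pax5, the B cell transcription factor, 0.798. Rps6ka1, a kinase downstream of ERK, had 0.461 and Lepr, the leptin receptor, 0.874. In dDAVP experiment 3 the order was reversed for Ephb2 (1.67) and Grin3a (0.539), and for Rps6ka1 (1.49) and Lepr (0.404). It was kept there for Ahdc1 (1.52) and Pax5 (1.85).

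In the matrix list Hspg2, which encodes the basement membrane proteoglycan perlecan, had 0.476 and Svep1, a large cell adhesion protein, 0.781. Among the transport genes Slc2a1, the glucose transporter of most cells, had 0.439 and Calb1, a calcium-binding protein of the distal nephron, 0.925. Wnt4, which directs tubule formation in the developing kidney, had 0.554, 0.568 and 1.35 with dDAVP and 0.530, 0.436 and 0.406 with vehicle. Calb1 had 0.925, 0.816 and 0.265 with dDAVP and 0.919, 0.927 and 1.16 with vehicle. Calb1 is AT-rich (37.0% GC) and Wnt4 GC-rich (54.6%), and their order was reversed in dDAVP experiment 3.

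Stretches of related genes departed most from the rest of the chromosome, in both directions. They were picked after their values were seen and were given no test. The lowest genes of the chromosome lay in the Skint cluster (chr4:111919555-114245028), whose members belong to a family named for its first gene, which is needed for the development of skin gamma delta T cells. Of 10 Skint genes, 5 lay under 0.3 in each of the 5 libraries without dDAVP experiment 3. Over all autosomes 8 of 9428 genes did so (0.0849%), and 7 of these 8 were chromosome 4 members.

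Skint3 (68.2 kb) had 0.065, 0.080 and 0.038 with dDAVP and 0.071, 0.090 and 0.074 with vehicle, from 19 to 60 reads a library. Skint4 next to it had 0.123, 0.112 and 0.049 with dDAVP and 0.132, 0.118 and 0.118 with vehicle. Skint6 and Skint5, which are 482 and 522 kb long, had 0.1998 to 0.213 and 0.236 to 0.269 in the 5 libraries, and 0.110 and 0.164 in dDAVP experiment 3. All 6 libraries were low in these genes, and dDAVP experiment 3 was the lowest in each. The neighbours Skint2 and Skint10, between Skint9 and Skint6, had 0.573 to 0.822 and 0.710 to 0.787 in the 5 libraries, which is the level of the rest of the chromosome. The step from Skint10 to Skint6 was thus larger than the spread of those 5 libraries. In dDAVP experiment 3 Skint2 and Skint10 were at 0.209 and 0.226, beside 0.110 for Skint6.

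The other genes under 0.3 in the 5 libraries were Gm3893 and 4933409K07Rik, which overlap at 41.9 to 42.5 Mb. Gm3893 (344 kb, chr4:41889795-42233950) had 0.215, 0.225 and 0.530 with dDAVP and 0.212, 0.219 and 0.191 with vehicle. Here dDAVP experiment 3 was the highest library, in a gene of 47.3% GC. Efcab7, an EF-hand protein of the primary cilium (chr4:99829500-99912783), followed with 0.388, 0.359 and 0.190 with dDAVP and 0.429, 0.367 and 0.457 with vehicle.

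The highest genes of the chromosome lay in a stretch near the far end, taken by position from Zfp980 to Plod1 (chr4:145670697-147936776) and called the zinc finger stretch after most of its genes. It held 17 member genes, 13 of them above 1 in each of the 5 libraries. Zfp985 had 2.86, 2.78 and 1.01 with dDAVP and 2.91, 2.74 and 3.21 with vehicle. Zfp600 had 2.75, 2.67 and 1.097 with dDAVP and 2.77, 2.83 and 3.16 with vehicle, and Rex2, whose upstream window was identical to that of Zfp600, had 2.37, 2.49 and 0.892 and 2.38, 2.45 and 2.70. In each of these genes the 5 libraries stood above the autosomal level and dDAVP experiment 3 near it. Zfp982 (338 kb) was at 1.73 to 1.85 in all 6 libraries. Against GC-matched intervals the 17 genes had a median of 1.61 to 1.79, with dDAVP experiment 3 at 1.64, inside the range of the others.

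The last 3 genes of the stretch lay under 1 in the 5 libraries. Zfp933, the next gene after Zfp984, had 0.739 to 0.830 in the 5 libraries. Mfn2, which fuses the outer membranes of mitochondria, and Plod1, a lysyl hydroxylase of collagen, had 0.570 to 0.743 and 0.458 to 0.666. Zfp991, between the high genes, was at 0.447 to 0.507. On the covered bases of the 17 genes the reads lay, by their median, 1.48 to 1.81 deep in the 5 libraries, against 1.199 to 1.506 over all 622 genes. In dDAVP experiment 3 the depth was 2.17, against 2.05 over all 622 genes. How reads of 50 bases were placed among similar copies is not given in the sources used here, and its part in these values was not tested.

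**Figure D4:**
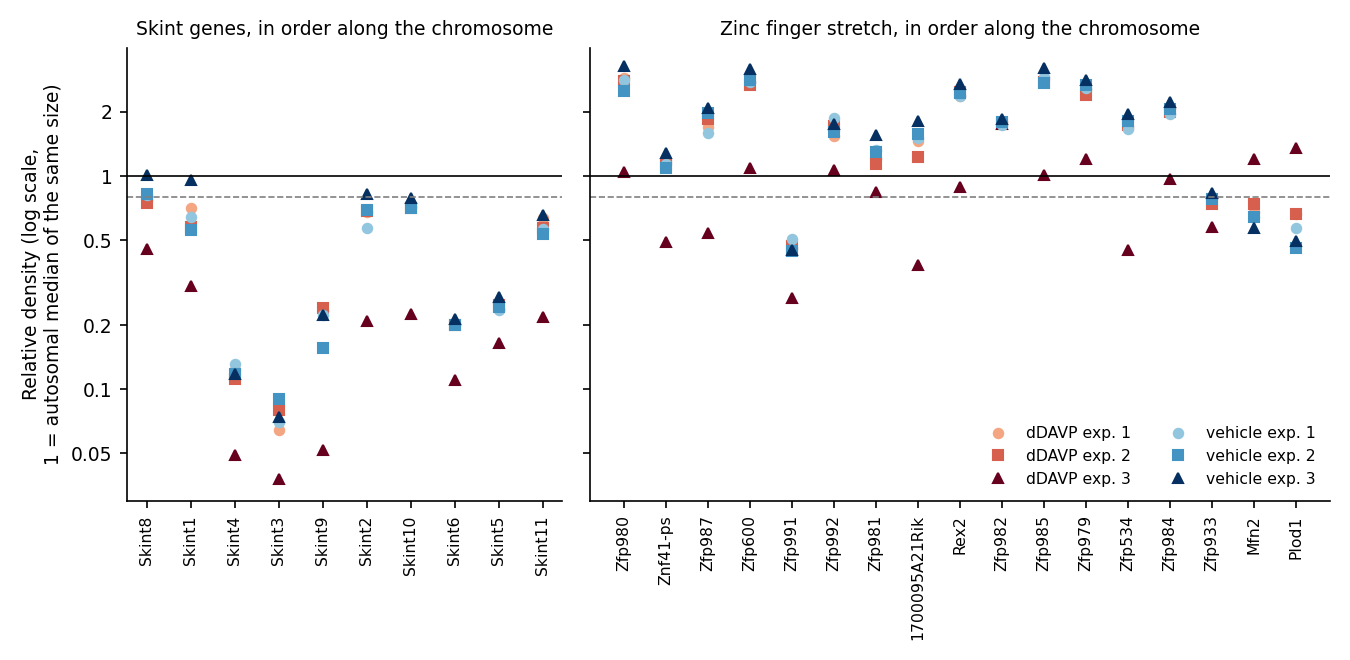
Relative density (y axis, log scale, 1 = autosomal median of intervals of the same size, dashed line 0.8) of the member genes of the Skint cluster (left) and of the zinc finger stretch (right), in order along the chromosome, 1 point per IgG library. On the left, in the 5 libraries without dDAVP experiment 3, Skint4, Skint3, Skint9, Skint6 and Skint5 lie under 0.3 and their neighbours near the level of the chromosome. In dDAVP experiment 3 Skint2 (0.209), Skint10 (0.226) and Skint11 (0.217) also lie under 0.3. On the right 13 genes lie above 1 in the 5 libraries without dDAVP experiment 3, which is marked by dark red triangles.

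The cytochrome P450 clusters lay between these extremes. The 7 Cyp2j genes, which encode enzymes that oxidise arachidonic acid and related fatty acids (chr4:96042660-96664119), had a median of 0.853 to 1.03 in the 5 libraries and 0.413 in dDAVP experiment 3, or 1.08 there with GC content matched. None of them lay under 0.8 in each of the 5 libraries and none above 1 in each. The 5 Cyp4 genes, fatty acid hydroxylases and relatives (chr4:115108682-115647705), had a median of 0.782 to 0.965 in the 5 libraries and 0.538 in dDAVP experiment 3, or 1.03 there with GC content matched.

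Away from these clusters, Cdk5rap2, a centrosomal protein (chr4:70223024-70410367), had 1.66, 1.73 and 0.913 with dDAVP and 1.65, 1.57 and 1.63 with vehicle. It was the single gene outside the multicopy families above 1.5 in the 5 libraries, from 1137 to 3675 reads over the 6. Its reads lay 2.86 to 3.69 deep on its covered bases in the 5 libraries and 2.30 in dDAVP experiment 3. Over all 622 genes the median depth was 1.199 to 1.506 in the 5 libraries and already 2.05 in dDAVP experiment 3. The part of this depth in the value of Cdk5rap2 was not tested. Mup15, one of the major urinary protein genes, had 1.09 to 1.28 in the 5 libraries and 0.538 in dDAVP experiment 3. When the genes of the 4 stretches were left out, the medians over the remaining 858 intervals were 0.644, 0.646 and 0.715 with dDAVP and 0.641, 0.643 and 0.637 with vehicle.

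The genes named here around Cdkn2a lay under 1. Mllt3, a subunit of elongation complexes (chr4:87769925-88033407), had 0.482, 0.493 and 0.370 with dDAVP and 0.490, 0.471 and 0.505 with vehicle. Focad, a focal adhesion protein (chr4:88094630-88411011), had 0.583, 0.594 and 0.557 and 0.608, 0.617 and 0.626, and Mtap, an enzyme of methionine salvage and the nearest member gene (chr4:89137370-89181090), 0.610, 0.594 and 0.455 and 0.595, 0.632 and 0.530. Elavl2, a neuronal RNA-binding protein on the far side (chr4:91250767-91399984), was at 0.699 to 0.809 in the 5 libraries. Cdkn2a itself, a tumour suppressor left out by the rule (20.1 kb, chr4:89274473-89294619), had 0.433, 0.467 and 0.489 with dDAVP and 0.435, 0.555 and 0.480 with vehicle. Aqp7, an aquaglyceroporin also left out (15.1 kb), had 0.840, 0.937 and 1.29 with dDAVP and 0.688, 0.722 and 0.729 with vehicle, against intervals of 1 kb or more of its own size.

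The level did not hang on the length limit. The 134 members just inside it, of 20 to 25 kb, had medians of 0.654 to 0.685 in the 5 libraries, and the 147 intervals just outside it, of 15 to 20 kb, 0.632 to 0.698. In dDAVP experiment 3 these were 0.865 and 0.810.

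The comparison of dDAVP with vehicle was not used to choose the chromosome, and asks whether its control read density, or that of a segment, differed with treatment. No member changed past the threshold. In edgeR's quasi-likelihood test over 30912 intervals, 0 of 908 members had an adjusted p under 0.05 (0.0% of all intervals did), with 2 samples per group and a smallest adjusted p of 0.619. At an unadjusted p under 0.05 there were 4 of 908 members, against 0.763% of all intervals. DESeq2 called 0 members, with 28 of 908 at an unadjusted p under 0.05, against 3.28%. The 4 and the 28 were all higher with dDAVP. The median log2 ratio of dDAVP to vehicle was -0.15 over the members and 0.01 over all intervals tested. Without dDAVP experiment 3 the median was -0.02, 0 members were called, and 25 were at an unadjusted p under 0.05, against 2.16%.

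The 4 members belonged to 3 genes, named here after their values were seen. Epha8, an ephrin receptor (chr4:136929419-136956816), had 0.694, 0.729 and 1.88 with dDAVP and 0.558, 0.529 and 0.465 with vehicle, a log2 ratio of 1.42 ± 0.55 (SE, edgeR adjusted p = 0.619). Padi1, a peptidylarginine deiminase, had 0.665, 0.689 and 1.89 with dDAVP and 0.521, 0.542 and 0.374 with vehicle (log2 ratio 1.42). Rap1gap, which inactivates the small GTPase Rap1, had 2 intervals of the same coordinates, with 0.541, 0.504 and 1.45 with dDAVP and 0.395, 0.456 and 0.275 with vehicle (log2 ratio 1.33). The dDAVP libraries lay above the vehicle libraries in the 3 genes, with experiment 3 at the highest value of the dDAVP group and the lowest of the vehicle group, and their GC contents were 54.3 to 56.2%, against a median of 44.0% over the members.

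Among the lists, the median log2 ratio was -0.45 for neural adhesion and synapses, -0.14 for regulators, -0.46 for receptors and kinases, 0.87 for the matrix and 0.70 for transport, against -0.15 over all members. In edgeR's test 0 genes were called in each list, and 1 list gene, Epha8, was at an unadjusted p under 0.05. With an offset for GC content in each library, the median log2 ratio over all 908 members was 0.05. The list ratios were not computed with that offset, so the part of GC content in them was not tested.

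By segment, 0 of 32 bins of chromosome 4 were called by edgeR's quasi-likelihood test over 533 bins (0.0% of all bins), 0 at an unadjusted p under 0.05. DESeq2 also called 0, with 6 of 32 chromosome 4 bins at an unadjusted p under 0.05, against 47 of 533 bins (8.82%). All 6 were higher with dDAVP. The largest log2 ratios were 1.29 ± 0.58 at 140 to 145 Mb, 1.24 ± 0.56 at 150 to 155 Mb and 1.06 ± 0.49 at 135 to 140 Mb (SE, edgeR adjusted p = 0.546), and the lowest were -0.64 at 25 to 30 and at 75 to 80 Mb. The bins of highest ratio were those of highest GC content (49.5 to 51.7%), and those of lowest ratio had the lowest (37.0 to 37.3%). The part of GC content and of dDAVP experiment 3 in these ratios was not tested separately from treatment. The median log2 ratio over the 32 bins was -0.07. With an offset for GC content in each library it was 0.02, and edgeR had 0 of 32 bins at an unadjusted p under 0.05, against 1 of 533. Without dDAVP experiment 3, which leaves 1 dDAVP sample, the median was -0.02.

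**Figure D5:**
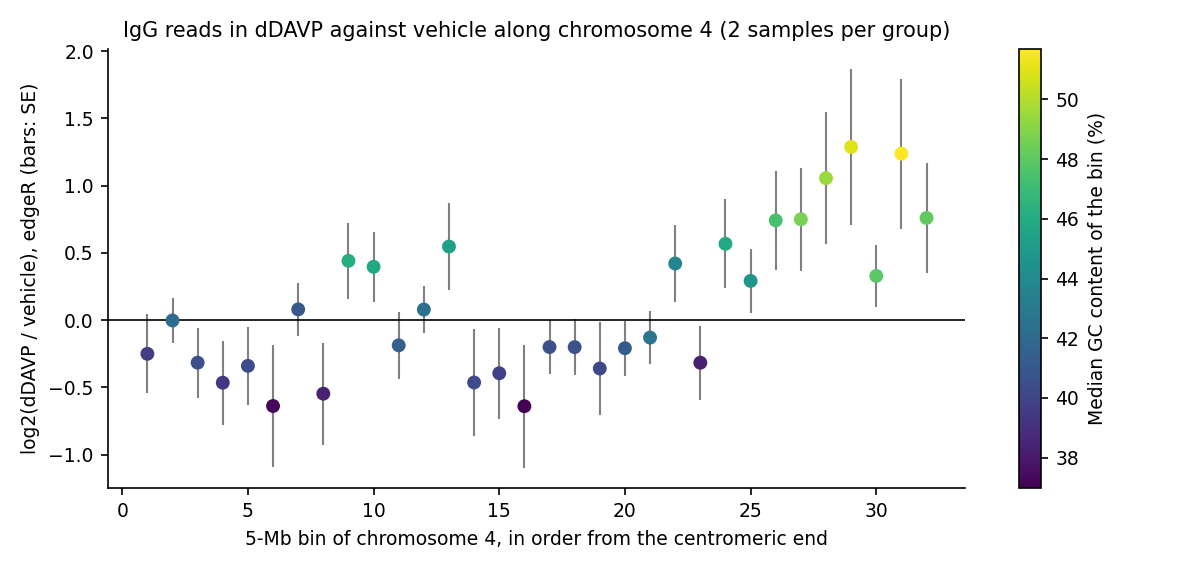
Log2 ratio of dDAVP to vehicle (y axis, bars are standard errors, 2 samples per group) for the 5-Mb bins of chromosome 4 in order (x axis), coloured by the median GC content of the bin. Values run from -0.64 to 1.29, the GC-rich bins near the far end are the highest, and no bin passed the threshold.

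For the whole chromosome, the relative density of the median member was higher by 0.034 with dDAVP than with vehicle, which gave p = 0.3333 in a two-sided exact permutation test, the smallest p that 2 samples against 2 allow. With GC content matched the difference was 0.011 (exact permutation p = 1). The first difference was smaller than the spread between the dDAVP samples (SD 0.041), and without dDAVP experiment 3 it was 0.005. The median log2 ratio over the members in edgeR had the opposite sign, at -0.15, with 404 of 908 members above 0. No direction of change for the chromosome is read from these values.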

How the data were processed

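Only the IgG control libraries were used, 3 with 0.1 nM dDAVP and 3 with vehicle. Per the labels' protocols, BWA placed reads of 50 bases on mm10. The submitters' processing notes also list SAMtools and bedtools. Per the file headers, the deposited count of an interval is the number of reads that overlap it, and the deposited fraction is the share of its bases with a read. The deposited counts are whole numbers with a different total in each library and were used as raw counts. How duplicate and poorly mapped reads were handled is not given in the sources used here. Reads in overlapping intervals count for each of them, on either strand. Library totals over intervals were 10588927 to 19748658 reads.

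Intervals were joined over the 6 libraries (33062 common to all, 33063 in the largest file), and 32763 were given a symbol from RefSeq and the GRCm38.p6 annotation, whose chromosome lengths match mm10. Relative density, bins and GC content (from the GRCm38.p6 sequence) were computed with pandas 2.3.3, scipy 1.17.1, numpy 2.4.6 and Python 3.11.15. Upstream windows were aligned with MAFFT 7.526. The count test was edgeR 4.0.16 in R 4.3.3 (TMM, filterByExpr, quasi-likelihood, Benjamini-Hochberg at 0.05 over all intervals or bins, no covariate) on all intervals, with experiments 1 and 2 of a group summed, and DESeq2 1.42.0 was the alternative. The methods were tested on simulated data. For edgeR the simulated counts held no GC trend like that of dDAVP experiment 3, so that trial does not show how the test performs on these libraries. Alternatives changed the reference, GC matching, length and block limits, thresholds, bin size, covered bases in place of counts, the replicate block and the libraries used. A GC-matched count without dDAVP experiment 3 and a level without the multicopy stretches were chosen after seeing the data.

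The members and lists were chosen with earlier results of these data known. Genes are named by rule: the 5 lists, the longest interval of each bin, the 8 lowest and 8 highest genes, neighbours of Cdkn2a within 2 Mb, and intervals past the threshold. Skint2, Skint10, Zfp933, Zfp991, Mfn2, Plod1, Padi1, Rap1gap, Cdk5rap2, Mup15 and the cytochrome P450 clusters were named after their values were seen. With DNA libraries, depth limits single genes more than bins.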

Additional observations from a re-analysis of the deposited data

How the results depend on the processing

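The chromosome 4 level of 0.661 (mean of 4 samples) was 0.642 to 0.679 under each alternative for the reference, GC content, interval choice, covered bases and separate libraries, and 0.646 to 0.667 with each library left out in turn. The count of 14 low bins became 25 with a threshold of 0.9, 4 with a threshold of 0.7, 29 with GC content matched and 31 with GC content matched and dDAVP experiment 3 left out. With each library left out in turn it ranged from 14 to 25, the highest without dDAVP experiment 3. The count of 344 low members became 165 with a threshold of 0.7 and 545 with GC content matched, and ranged from 344 to 682 with a library left out, again highest without dDAVP experiment 3. With 2-Mb and 10-Mb bins, 30 and 10 bins were low. The number of bins counted changes with their size, so these counts cannot be set against 14 of 31. The autosomal share at these bin sizes and at thresholds of 0.9 and 0.7 was not computed. No member and no bin was called (0) under any of the 24 alternatives run for the treatment comparison, DESeq2 and each left-out library among them.

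The deviations of same-numbered experiments had correlations of -0.28, -0.29 and -0.49 over 29700 intervals. Those of differently numbered experiments had correlations from -0.30 to 0.47. Experiment 3 stood apart from experiments 1 and 2 in each group, so these values cannot tell whether same-numbered samples were paired. With the experiment number as a replicate block, 0 members and 0 bins were called, as without it. The difference between dDAVP and vehicle in the chromosome level was 0.005 to 0.034 over the left-out libraries, lowest without dDAVP experiment 3. Of 1296 values of the 144 named genes under the alternatives, 1289 moved by less than the SD between samples and 7 by more. Most of these alternatives left out a library. That can hardly move a mean past the SD of the samples it came from, so the count does not show that single libraries matter little. Counting error was widest for the least covered member, at 12 reads in dDAVP experiment 3, and 2 samples per group limit each test of treatment.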

Other observations

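A further 3 long intervals lay on scaffolds assigned to chromosome 4 without a position, and were not members. An interval of Dhrsx, a gene of the short-chain dehydrogenase family, had a relative density of 0.358, 0.248 and 0.541 with dDAVP and 0.269, 0.380 and 0.375 with vehicle. The 2 intervals of 4933409K07Rik on scaffolds had 0.206 to 0.343 over the 6 libraries, and its placed copy had 0.179 to 0.520.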
